A study of Mus musculus with 24 samples.

Results

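The genes described here are 9 genes known as feedback regulators or direct transcriptional responses of transforming growth factor beta (TGF-beta) signalling: Ccn2, Tgfbi, Pmepa1, Ldlrad4, Bambi, Ski, Skil, Tgif1 and Klf10. They were chosen by name, as probe sets whose platform gene symbol was one of these. They are 9 of 18193 genes on the array and 19 of its 45101 probe sets. Where a gene had several probe sets, the one with the highest mean gave its value, and all 9 were among the 12811 genes bright enough to test.

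The series measured RNA in 24 jaw samples of C57B6 mouse embryos at embryonic day 14.5, as 8 groups of 3 arrays. The mutant groups are the distal maxilla, the proximal maxilla, the distal mandible and the proximal mandible (upper and lower jaw, each cut into 2 ends), and each has a control group of the same region. Mutants came from Wnt1-Cre;Tgfbr2 fl/+ mice bred with Tgfbr2 fl/fl mice and were picked by their cleft palate and defective calvaria. The controls were littermates whose own alleles are not given in the labels. Wnt1-Cre acts in the neural crest lineage, so skeletal muscle, endothelial, blood and surface epithelial cells of a piece still have the receptor gene. Each value is a mixture of these cells and of the crest-derived cells, and a lower level can mean fewer cells of a type or less RNA per cell, which these data cannot tell apart. The labels do not say whether arrays of a group are separate embryos, so the p-values speak for the spread among these arrays only, part of which may be technical.

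TGF-beta ligands bind the type II receptor, encoded by Tgfbr2, which activates the type I receptor. The activated receptor phosphorylates Smad2 and Smad3, which join Smad4 and regulate genes in the nucleus. Among the genes they induce are matrix proteins and a set of inhibitors that act back on the receptors or on the Smads. Crest-derived mesenchyme of the jaw needs this pathway for normal palate, calvaria and mandible.

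Values are log2 expression from the deposited table, on which a difference of 1 is a doubling, and differences are mutant minus control with the standard error (SE) of the fit. Calls are adjusted p-values under 0.05 from limma with Benjamini-Hochberg adjustment over all genes tested. Levels of different probe sets are not compared with each other, since probes differ in brightness.

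Tgfbr2 itself was higher in mutants. It lay between 12.16 and 12.56 on the 12 mutant arrays, against 11.52 to 12.12 on the 12 control arrays, and passed the test when the 4 regions were averaged (0.45 ± 0.06, limma adjusted p = 0.0355). The labels do not name the floxed exon, so this probe set is no check of the genotypes. The jaw labels were checked with mandible markers Hand2, Dlx5 and Dlx6, whose mean, centred on all arrays, was 0.65 to 1.47 in mandible arrays and −1.63 to −0.70 in maxilla arrays. The maxilla markers Pou3f3, Nr2f1 and Irx5 overlapped between jaws, at 0.28 at most in mandible arrays and −0.22 at least in maxilla arrays.

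3 mutant maxilla arrays stood apart in tissue markers: distal 1, proximal 1 and proximal 2. Their means over 6 cartilage genes (Col2a1, Col9a1, Matn1, Acan, Hapln1, Sox9) were −2.95, −2.94 and −3.06, against 0.27 to 1.78 in control maxilla arrays. Their means over 5 skeletal muscle genes were 0.95, 1.62 and 0.94, against −1.98 to −1.08 in control maxilla arrays. Proximal 1 and 2 also had nasal epithelium means of −1.39 and −1.19, against 2.69 to 2.91 in control proximal maxilla. No mutant proximal maxilla array lay in the control range of either mean. Nasal means were at most 2.04 there, and muscle means at least −0.04, against −1.70 to −1.08 in control proximal maxilla. Fits with the nasal and muscle means as covariates therefore extrapolate in that region and cannot separate genotype from tissue. Maxilla results are also given without these 3 arrays where their call, direction or size turned on them. That left 1 mutant array in the proximal maxilla, which was taken to vary like the other groups.

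The RefSeq table used here held promoter windows for 3 of the 9 genes, Tgfbi, Ski and Tgif1 (build GRCm38.p6, 250 bases before to 50 bases after the annotated start). Those of Tgfbi and Ski are shown because these were the members higher in mutant proximal maxilla. Capitals mark the Smad box, CAGAC or its reverse complement GTCTG, the short element that Smad3 and Smad4 contact. Tgfbi lies at chr13:56609336-56609635 on the plus strand and Ski at chr4:155222486-155222785 on the minus strand, each written 5′ to 3′ on its own strand.
Tgfbi: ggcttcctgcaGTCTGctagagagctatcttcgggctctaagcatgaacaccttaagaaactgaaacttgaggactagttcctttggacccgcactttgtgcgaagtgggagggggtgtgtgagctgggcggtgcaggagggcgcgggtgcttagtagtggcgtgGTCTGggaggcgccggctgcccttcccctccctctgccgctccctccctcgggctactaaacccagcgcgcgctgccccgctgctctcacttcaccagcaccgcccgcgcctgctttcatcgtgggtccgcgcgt
Ski: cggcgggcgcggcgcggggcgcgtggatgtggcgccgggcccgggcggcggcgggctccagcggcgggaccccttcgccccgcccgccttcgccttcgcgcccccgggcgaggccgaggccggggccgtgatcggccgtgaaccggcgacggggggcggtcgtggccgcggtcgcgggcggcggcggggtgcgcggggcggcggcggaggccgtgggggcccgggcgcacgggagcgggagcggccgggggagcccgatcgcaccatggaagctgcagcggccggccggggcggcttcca
The Tgfbi window holds 2 Smad boxes, at −239 and −85 from the start, and the Ski window holds 0. The box is found in 49.59% of the 32851 windows of this length in the table, so its presence does not set a promoter apart. The Tgfbi window is 63.3% G or C and the Ski window 85.3%.

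**Figure D1:**
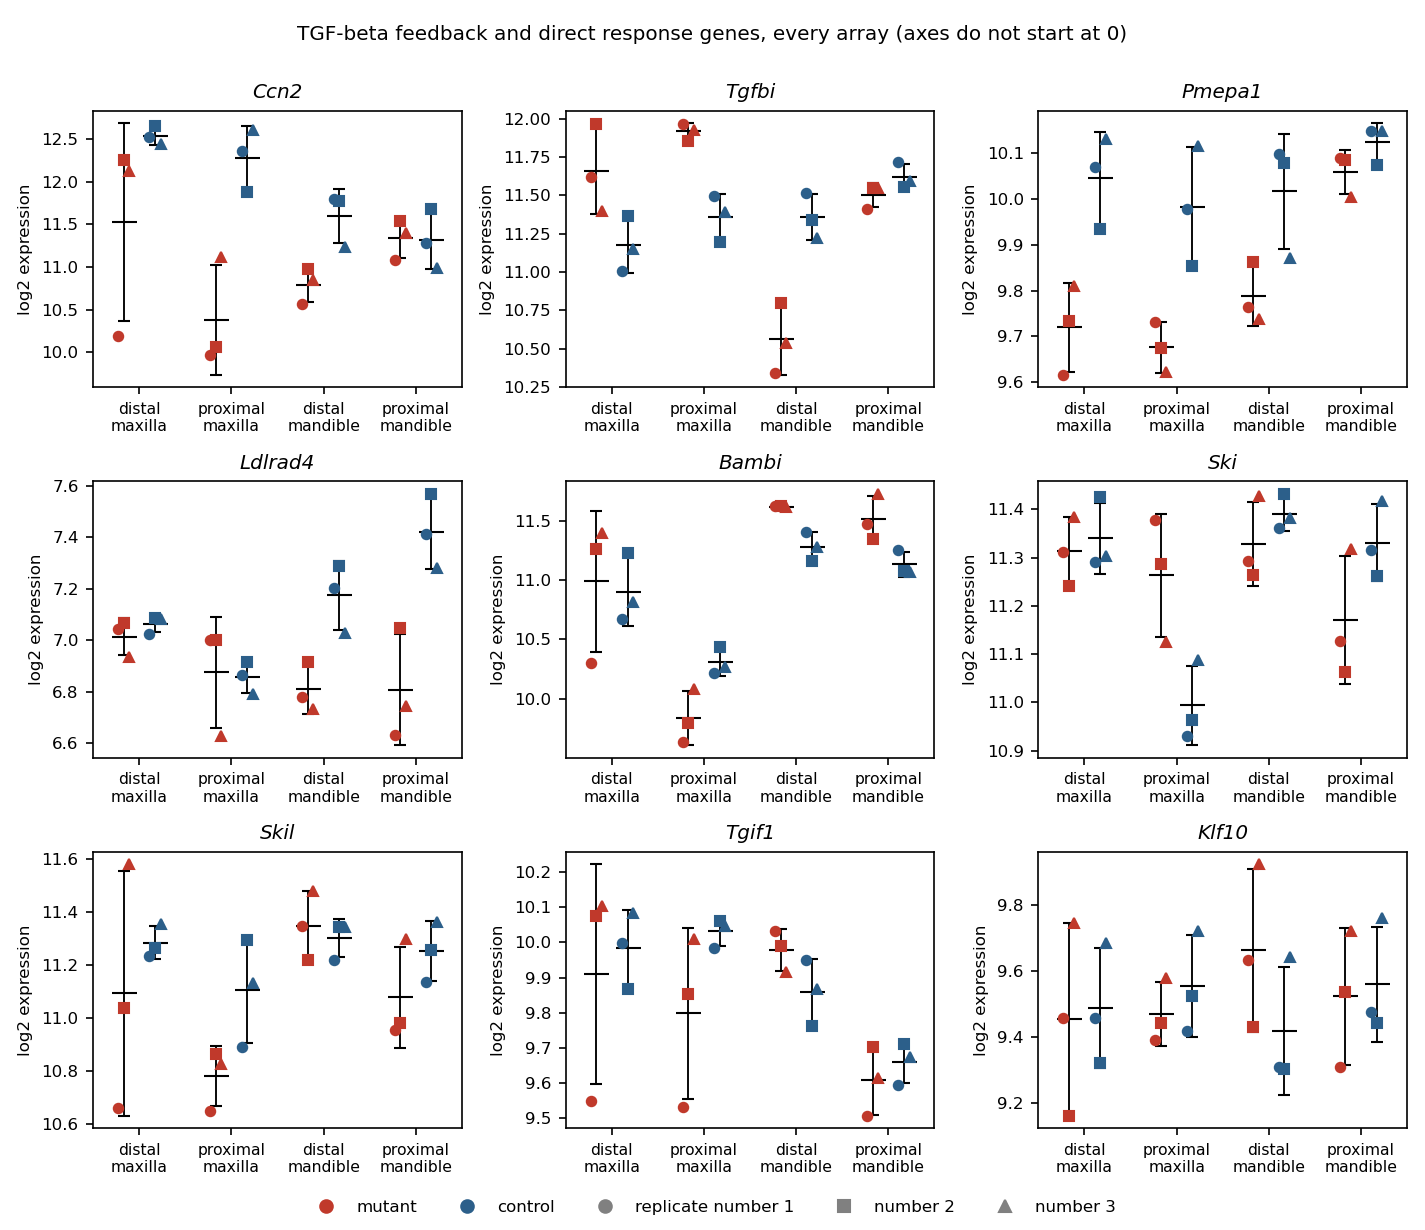
Log2 expression (vertical axis) of each of the 9 genes on each of the 24 arrays, one panel per gene, by region (horizontal axis), with mutants in red left of controls in blue, marker shapes for replicate numbers, and bars for the group mean ± SD (n = 3). The axes do not start at 0. Ccn2, Bambi and Tgfbi spread widest between arrays, and in mutant proximal maxilla all 3 Ccn2 values lie below all 3 control values.

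Ccn2 encodes a secreted matricellular protein (connective tissue growth factor) induced by TGF-beta and abundant in cartilage. It varied most of the 9 genes, over 2.69 between the lowest and the highest array. In the proximal maxilla its level was 9.97, 10.06 and 11.12 in mutants, against 12.36, 11.88 and 12.61 in controls. The groups did not overlap, and the difference was −1.90 ± 0.41 (adjusted p = 0.00311, limma, n = 3 per group), the largest of any member in any region. In the distal maxilla it was 10.19, 12.26 and 12.13 in mutants, against 12.53, 12.66 and 12.44 in controls. All mutant arrays were again below all controls, but array 1 lay far below the other two, and the difference of −1.01 ± 0.41 did not pass (adjusted p = 0.45, limma). Without that array it was −0.34 (adjusted p = 0.831, limma).

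Ccn2 in the distal mandible was 10.56, 10.97 and 10.85 in mutants, against 11.80, 11.78 and 11.23 in controls. These ranges were apart, with a difference of −0.81 ± 0.41 that did not pass (adjusted p = 0.426, limma). That SE is shared by all 8 groups. The SD was 0.21 in these mutants and 0.32 in these controls, against 1.16 in mutant distal maxilla. In 3 of 19 other settings the difference passed, among them array weights (−0.94, adjusted p = 0.0307, limma). Another was the nasal and muscle means as covariates (−1.37, adjusted p = 0.00355, limma). Muscle means did not overlap there (−0.37 to 0.31 in mutants, 0.49 to 1.31 in controls), so that fit extrapolates. In the proximal mandible Ccn2 was 11.08, 11.54 and 11.40 in mutants, against 11.29, 11.68 and 10.99 in controls. Here the groups overlapped and the means differed by 0.02 ± 0.41. Ordered by mean, both control maxilla groups came first (12.54 distal, 12.28 proximal) and were apart from the next group, and mutant distal mandible (10.79) and mutant proximal maxilla (10.38) came last, with ranges that overlapped each other.

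Cartilage markers moved with Ccn2 across the 24 arrays (Pearson r 0.81 with their mean). Other tissue means did too, with r −0.72 for muscle, −0.70 for macrophages and 0.62 for nasal epithelium. The 3 mutant maxilla arrays with the low cartilage means had the 3 lowest Ccn2 values, 10.19, 9.97 and 10.06. In mutant distal mandible, arrays 1 and 3 had cartilage means of −2.45 and −2.14, against −0.37 to 0.93 in control distal mandible. In the proximal mandible the cartilage means were 1.10 to 1.46 in mutants, against −1.33 to 0.80 in controls, and there Ccn2 did not pass. Mutant proximal maxilla 3 had a cartilage mean of 0.90, within the control range, with Ccn2 at 11.12, below all 3 controls. Its muscle mean was −0.04, against −1.70 to −1.08 in its controls, and its nasal mean 2.04, against 2.69 to 2.91. Mutant distal mandible 2 had a cartilage mean of 0.17, within the control range, with Ccn2 at 10.97. The part of each tissue in the Ccn2 differences was not tested. With the cartilage mean as a covariate the proximal maxilla difference was −0.82 (adjusted p = 0.0643, limma). With the nasal and muscle means as covariates it was −0.25 (adjusted p = 0.833, limma), and without the 3 arrays it was −1.16 (adjusted p = 0.0666, limma).

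**Figure D2:**
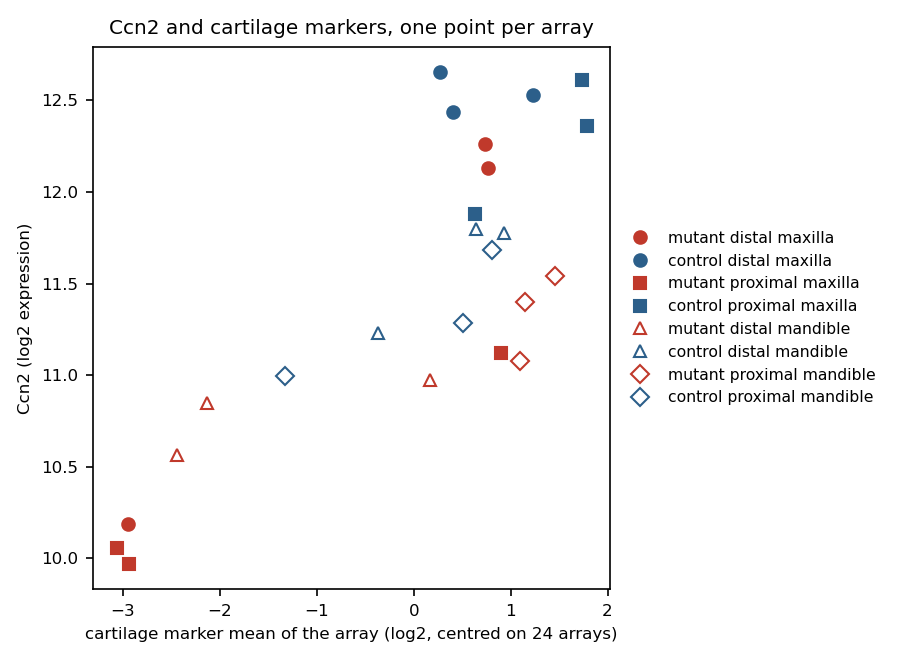
Ccn2 log2 expression (vertical axis) against the mean of 6 cartilage marker genes, centred on 24 arrays (horizontal axis, log2), one point per array, red for mutant and blue for control. The 3 arrays at the lower left, with cartilage means from −3.06 to −2.94, have the lowest Ccn2 values, and mutant proximal maxilla 3 lies at 11.12 with a cartilage mean of 0.90.

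Tgfbi encodes a secreted matrix protein, named for its induction by TGF-beta, that binds collagens and integrins. It went in opposite directions in the 2 jaws, past the threshold only in the proximal maxilla and the distal mandible. In the proximal maxilla it was 11.96, 11.86 and 11.93 in mutants, against 11.49, 11.20 and 11.39 in controls, so that all mutant arrays were higher. The difference was 0.56 ± 0.13 (adjusted p = 0.00622, limma, n = 3 per group). In the distal maxilla it was 11.62, 11.96 and 11.40 in mutants, against 11.01, 11.37 and 11.15 in controls. The ranges were apart by little, and the difference of 0.49 ± 0.13 did not pass (adjusted p = 0.18, limma).

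Tgfbi in the distal mandible was 10.34, 10.80 and 10.54 in mutants, against 11.52, 11.34 and 11.22 in controls. All mutant arrays were lower, by 0.42 or more than the lowest control, and Tgfbi fell by 0.80 ± 0.13 (adjusted p = 0.00613, limma), or 1.74-fold. Its proximal mandible values were 11.41, 11.55 and 11.55 in mutants, against 11.71, 11.55 and 11.59 in controls, with all mutants below all controls by a gap under 0.01, and the difference of −0.12 ± 0.13 did not pass (adjusted p = 0.686, limma). The mutant effect differed between jaws by −0.98 ± 0.13, mandible minus maxilla (adjusted p = 0.00191, limma). The call in the distal mandible was lost without mutant distal mandible 1 (−0.69, adjusted p = 0.0503, limma).

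The 4 Tgfbi probe sets gave the same picture when each probe set was tested on its own. In the proximal maxilla their differences were 0.37 to 0.56, and in the distal mandible −0.87 to −0.70, all past the threshold over all probe sets. In the proximal maxilla, endothelial markers (Pecam1, Cdh5, Kdr) had means of 0.05 to 0.27 in mutants, against −0.25 to −0.14 in controls, and macrophage markers had means of 0.14 to 0.91 in mutants, against −0.52 to −0.43 in controls. Over the 24 arrays Tgfbi had a Pearson r of 0.68 with the endothelial mean and 0.48 with the macrophage mean. In mutant proximal maxilla 3 Tgfbi was 11.93. That array's endothelial and macrophage means were the lowest of its group and still above all 3 controls. The part of these cells in the Tgfbi difference was not tested. With the cartilage mean as a covariate the proximal maxilla difference was 0.67 (adjusted p = 0.029, limma), and without the 3 arrays 0.57 (adjusted p = 0.217, limma). With the nasal and muscle means as covariates it was 0.53 (adjusted p = 0.378, limma).

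The membrane-bound inhibitors come next. Pmepa1 encodes a transmembrane protein that holds back Smad2 and Smad3 and is itself induced by TGF-beta. Proximal maxilla values were 9.73, 9.67 and 9.62 in mutants, against 9.98, 9.85 and 10.12 in controls. The groups did not overlap, and Pmepa1 fell by 0.31 ± 0.08 (adjusted p = 0.00741, limma, n = 3 per group), or 1.24-fold. In the distal maxilla it was 9.62, 9.73 and 9.81 in mutants, against 10.07, 9.93 and 10.13 in controls, with the ranges apart. That difference was as large, −0.32 ± 0.08, but did not pass in this comparison (adjusted p = 0.0988, limma). Leaving out control distal maxilla 2, it was −0.38 and passed (adjusted p = 0.0481, limma).

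Pmepa1 in the distal mandible was 9.76, 9.86 and 9.74 in mutants, against 10.10, 10.08 and 9.87 in controls. The ranges were just apart, and the difference was −0.23 ± 0.08 (adjusted p = 0.192, limma). Its proximal mandible values were 10.09, 10.08 and 10.00 in mutants, against 10.15, 10.07 and 10.15 in controls, with overlap and a difference of −0.06 ± 0.08 (adjusted p = 0.703, limma). The other two Pmepa1 probe sets also had negative differences in all 4 regions, −0.57 to −0.34 for one and −0.27 to −0.08 for the other, and neither passed in any. With the cartilage mean as a covariate the proximal maxilla difference of the main probe set was −0.24 (adjusted p = 0.159, limma). With the nasal and muscle means as covariates it was −0.28 (adjusted p = 0.486, limma), and without the 3 maxilla arrays −0.36. Over the 24 arrays Pmepa1 had a Pearson r of 0.67 with the mean of tendon markers, 0.60 with cartilage and −0.54 with keratinocyte markers. The part of these tissues in the Pmepa1 differences was not tested.

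Ldlrad4 encodes a transmembrane relative of Pmepa1 that binds Smad2 and Smad3. It was dim, with a mean of 7.00 that is close to the array medians (6.93 to 7.00), where background takes part of the signal and differences are understated. In the proximal mandible it was 6.63, 7.05 and 6.74 in mutants, against 7.41, 7.57 and 7.28 in controls. All mutant arrays were lower, and Ldlrad4 fell by 0.61 ± 0.11 (adjusted p = 0.00549, limma, n = 3 per group), or 1.53-fold. In the distal mandible it was 6.78, 6.92 and 6.73 in mutants, against 7.20, 7.29 and 7.03 in controls. The ranges were apart there too, and the difference of −0.36 ± 0.11 did not pass (adjusted p = 0.141, limma). With the replicate number as a block it passed (adjusted p = 0.0197, limma).

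In the distal maxilla Ldlrad4 was 7.04, 7.06 and 6.93 in mutants, against 7.03, 7.08 and 7.08 in controls. In the proximal maxilla it was 7.00, 7.00 and 6.63 in mutants, against 6.86, 6.92 and 6.79 in controls. Both pairs of groups overlapped, with differences of −0.05 ± 0.11 and 0.02 ± 0.11. Without the 3 arrays the proximal one was −0.23 (adjusted p = 0.563, limma). The mutant effect was lower in the mandible than in the maxilla by 0.47 ± 0.11, written as −0.47 for mandible minus maxilla (adjusted p = 0.0187, limma). Without the 3 maxilla arrays it was −0.34 (adjusted p = 0.214, limma).

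A second Ldlrad4 probe set bright enough to test had differences of −0.32 in the distal maxilla, −0.42 in the proximal maxilla, −0.42 in the distal mandible and −0.69 in the proximal mandible. It passed in none, and in the maxilla it had values that the main probe set did not have, so the jaw difference rests on the main probe set. The mean of tendon markers (Scx, Tnmd, Fmod) had a Pearson r of 0.81 with Ldlrad4 over the 24 arrays. Their centred means were −0.81 to −0.66 in mutant distal mandible, against 0.36 to 1.05 in control distal mandible. In the proximal mandible they were −0.60 to −0.07 in mutants, against 0.85 to 1.02 in controls. Tendon means were also lower in mutant distal maxilla, at −0.29 to −0.23, against −0.07 to 0.15 in controls. In the proximal maxilla they were −0.70 to −0.28 in mutants, against −0.33 to 0.23 in controls. The main Ldlrad4 probe set passed at neither maxilla end. The part of tendon cells in the Ldlrad4 differences was not tested.

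**Figure D3:**
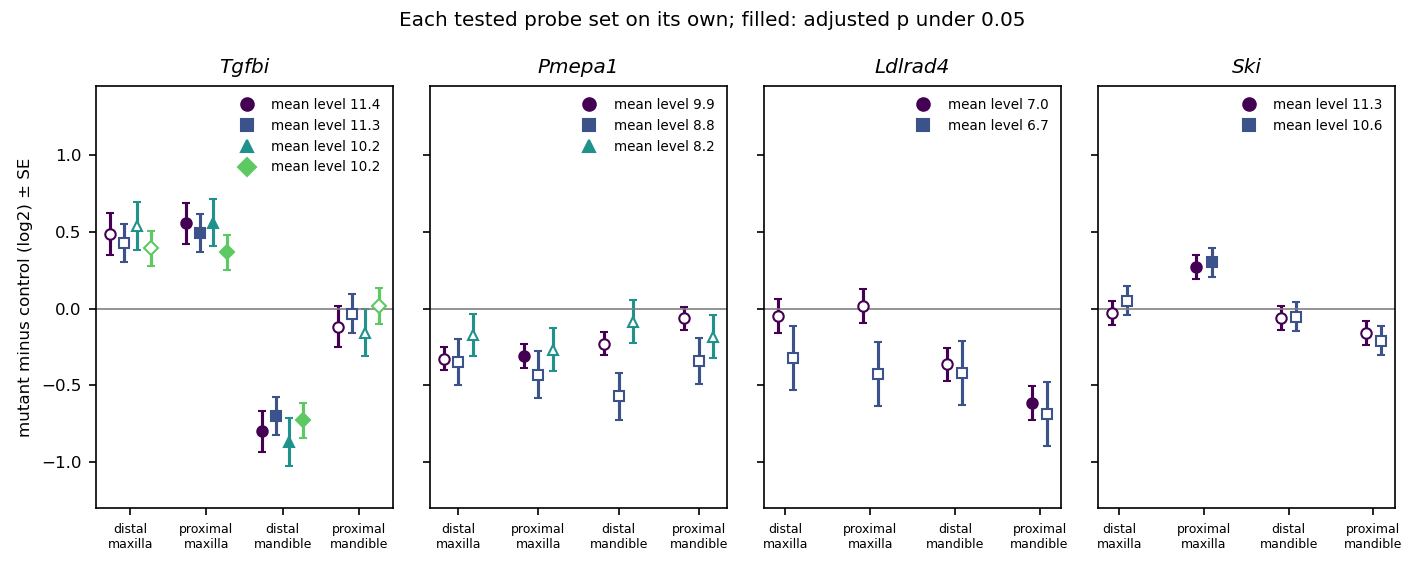
Mutant minus control difference (log2, vertical axis) ± SE of each tested probe set of Tgfbi, Pmepa1, Ldlrad4 and Ski in the 4 regions (horizontal axis), filled where the adjusted p was under 0.05, with each probe set's mean level in the legend. The Tgfbi probe sets lie together in every region, and all Pmepa1 probe sets lie below 0.

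Bambi encodes a decoy receptor without a kinase domain that blocks TGF-beta and bone morphogenetic protein (BMP) type I receptors. It was the second most variable member, over 2.10 between arrays (its lowest and highest values were 9.63 and 11.73). Proximal maxilla values were 9.63, 9.79 and 10.08 in mutants, against 10.22, 10.44 and 10.26 in controls. The mutants were all lower, but the difference of −0.47 ± 0.21 did not pass (adjusted p = 0.11, limma), and it was −0.23 without the 3 arrays and 0.08 with the nasal and muscle means as covariates. In the distal maxilla it was 10.30, 11.26 and 11.40 in mutants, against 10.67, 11.22 and 10.81 in controls, with overlap and a difference of 0.09 ± 0.21, or 0.43 without mutant array 1 (adjusted p = 0.298, limma).

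Bambi in the distal mandible was 11.62, 11.62 and 11.61 in mutants, against 11.41, 11.16 and 11.28 in controls. Proximal mandible values were 11.47, 11.34 and 11.73 in mutants, against 11.25, 11.08 and 11.06 in controls. Mutants were above controls on every array of both regions, with differences of 0.34 ± 0.21 (adjusted p = 0.534, limma) and 0.38 ± 0.21 (adjusted p = 0.325, limma), neither of which passed. The difference of the mutant effect between jaws, 0.55 ± 0.21, did not pass either (adjusted p = 0.101, limma).

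Of the nuclear corepressors, Ski and Skil bind Smad complexes and silence their targets, and TGF-beta breaks them down and then induces Skil anew. Ski in the proximal maxilla was 11.38, 11.29 and 11.13 in mutants, against 10.93, 10.96 and 11.09 in controls. The ranges were apart by 0.04, and Ski rose by 0.27 ± 0.08 (adjusted p = 0.0172, limma, n = 3 per group), or 1.21-fold. That call was lost without any one of control 1 (0.24, adjusted p = 0.0726, limma), control 2 (0.25, adjusted p = 0.0546, limma), mutant 1 (0.21, adjusted p = 0.114, limma) or mutant 2 (0.26, adjusted p = 0.0642, limma). A second Ski probe set rose there by 0.30 (adjusted p = 0.0336 over all probe sets, limma).

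In the other regions Ski differed by −0.03 ± 0.08 in the distal maxilla, −0.06 ± 0.08 in the distal mandible and −0.16 ± 0.08 in the proximal mandible, none past the threshold. Control proximal maxilla had the lowest Ski mean of the 8 groups, 10.99, and the other 7 ran from 11.17 to 11.39, where no group was apart from its neighbour in the order. Keratinocyte markers (Krt5, Krt14, Krt10, Krtdap) had centred means of 0.53 to 1.16 in mutant proximal maxilla, against −2.70 to −0.02 in control proximal maxilla, and neuron markers −1.43 to 2.08 in mutants, against 2.87 to 3.15 in controls. Their part in the Ski difference was not tested. With the cartilage mean as a covariate the proximal maxilla difference was 0.17 (adjusted p = 0.317, limma). With the nasal and muscle means as covariates it was 0.07 (adjusted p = 0.882, limma), and without the 3 arrays 0.13.

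Skil in the proximal maxilla was 10.65, 10.87 and 10.83 in mutants, against 10.89, 11.29 and 11.13 in controls. The ranges were just apart, with a difference of −0.32 ± 0.16 that did not pass (adjusted p = 0.162, limma). Elsewhere it differed by −0.19 ± 0.16 in the distal maxilla, 0.05 ± 0.16 in the distal mandible and −0.17 ± 0.16 in the proximal mandible, none past the threshold. Mutant distal maxilla spread widest, at 10.66, 11.04 and 11.58, and without its array 1 the difference there was 0.03. With the nasal and muscle means as covariates the proximal maxilla difference was 0.01.

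Tgif1 encodes a homeodomain corepressor that binds Smad2 and Smad3. Proximal maxilla values were 9.53, 9.85 and 10.01 in mutants, against 9.98, 10.06 and 10.05 in controls, overlapping by one array, and the difference of −0.23 ± 0.12 did not pass (adjusted p = 0.193, limma). In the other regions the differences were −0.07 ± 0.12, 0.12 ± 0.12 and −0.05 ± 0.12 in the distal maxilla, distal mandible and proximal mandible, none past the threshold. The 2 lowest maxilla values, 9.55 and 9.53, belonged to mutant distal 1 and mutant proximal 1. Without the 3 arrays the differences were 0.11 in the distal and −0.02 in the proximal maxilla, and with the nasal and muscle means as covariates the proximal one was 0.27, none past the threshold.

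Klf10 encodes a Krüppel-like zinc finger factor, first known as a TGF-beta inducible early gene. It differed least between groups, with group means over a range of 0.24. Its differences were −0.03 ± 0.16 in the distal maxilla, −0.08 ± 0.16 in the proximal maxilla, 0.24 ± 0.16 in the distal mandible and −0.04 ± 0.16 in the proximal mandible, and none passed. In the distal mandible it was 9.63, 9.43 and 9.92 in mutants, against 9.31, 9.30 and 9.64 in controls, with overlap. Without the 3 maxilla arrays the Klf10 difference in the proximal maxilla was 0.02.

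**Figure D4:**
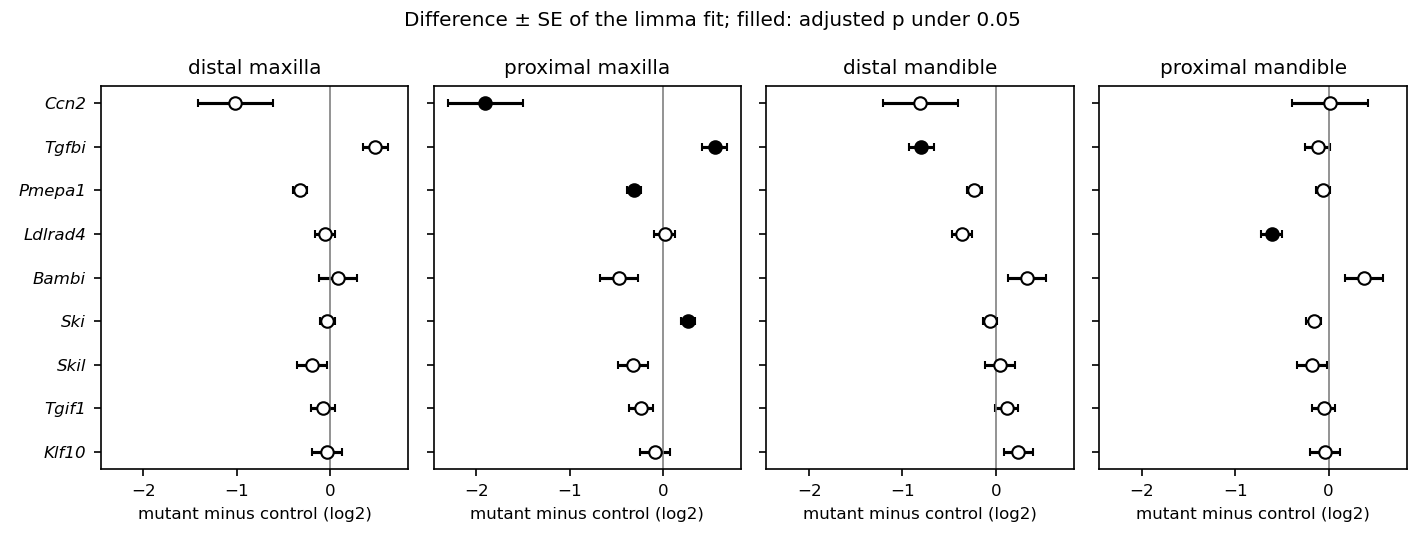
Mutant minus control difference (log2, horizontal axis) with the SE of the fit for each of the 9 genes (vertical axis) in 4 regions, filled where the adjusted p was under 0.05. Filled points are Ccn2, Tgfbi, Pmepa1 and Ski in the proximal maxilla, Tgfbi in the distal mandible and Ldlrad4 in the proximal mandible.

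Counted by region, 4 of the 9 members passed in the proximal maxilla, 2 in each direction, where 23.3% of all genes tested passed. In the distal maxilla 0 of 9 passed, against 0.195% of all genes by limma. There 3 members, and 1177 of the 12811 genes, had an unadjusted p under 0.05 by limma. In the distal mandible 1 of 9 passed, lower (0.742% of all genes), and in the proximal mandible 1 of 9, lower (4.34%). With the replicate number as a block, 2 of 9 members and 354 of 12811 genes passed in the distal mandible, against 95 genes without it, and 1356 against 556 genes passed in the proximal mandible. Leaving out the 3 arrays left 1 mutant array in the proximal maxilla, so members called are not counted for that fit. The differences there were then −1.16 for Ccn2, 0.57 for Tgfbi, −0.36 for Pmepa1 and 0.13 for Ski. In the main fit these were −1.90, 0.56, −0.31 and 0.27. With only the 2 compared groups in the fit, Pmepa1 (adjusted p = 0.0778, limma) and Ski (adjusted p = 0.108, limma) missed the threshold in the proximal maxilla, as did Tgfbi in the distal mandible (adjusted p = 0.0607, limma) and Ldlrad4 in the proximal mandible (adjusted p = 0.0765, limma). The median difference of the 9 was −0.05 in the distal maxilla, −0.23 in the proximal maxilla, −0.06 in the distal mandible and −0.06 in the proximal mandible. Over all genes tested these medians were −0.01, 0.01, 0.03 and −0.04.

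Members whose mutant and control arrays did not overlap numbered 3 in the distal maxilla, 6 in the proximal maxilla, 5 in the distal mandible and 3 in the proximal mandible. Over all genes tested the shares were 11.6%, 36.2%, 22% and 24.2% in the same order of regions. The 3 in the distal maxilla were Tgfbi, above, and Ccn2 and Pmepa1, below. In the mandible Bambi was above at both ends, and Tgfbi and Ldlrad4 were below at both ends.

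In the average of regions, each genotype's 4 arrays of one replicate number were averaged first, giving 3 mutant and 3 control units. There 0 of 9 members passed by limma, against 1.09% of all genes tested. An unadjusted p under 0.05 by limma was found for 3 members and for 2138 of the 12811 genes. The differences nearest to the threshold were Pmepa1 at −0.23 ± 0.05 (adjusted p = 0.0957, limma), Ccn2 at −0.93 ± 0.23 (adjusted p = 0.124, limma) and Ldlrad4 at −0.25 ± 0.08 (adjusted p = 0.201, limma), all lower in mutants. When the same average was taken in the fit of all 24 arrays, these 3 passed. That fit counts arrays of one genotype and number as independent, which the labels do not say they are. Over all settings the number of genes called for the average ran from 0 to 2521, so these passes do not set the members apart. The same fit without the 3 maxilla arrays gave −0.57 for Ccn2, −0.23 for Pmepa1 and −0.32 for Ldlrad4.

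The effect of the mutation differed between jaws for 2 of the 9 members, Tgfbi and Ldlrad4, where 8.26% of all genes tested passed. Both had the lower value in the mandible. Ccn2 had 1.06 ± 0.41, mandible minus maxilla (adjusted p = 0.106, limma), and it passed without mutant distal maxilla 2 (1.25, adjusted p = 0.0499, limma) or without mutant proximal maxilla 3 (1.25, adjusted p = 0.0321, limma). It was 0.36 without the 3 arrays (adjusted p = 0.597, limma) and −0.47 with the nasal and muscle means as covariates (adjusted p = 0.613, limma). Bambi passed without mutant distal maxilla 3 (0.65, adjusted p = 0.0396, limma) or, at the edge of the threshold, without mutant proximal maxilla 3 (0.61), and was 0.26 without the 3 arrays and −0.04 with those covariates. Ski, at −0.23 ± 0.08 (adjusted p = 0.0653, limma), passed without mutant proximal maxilla 3 (−0.27, adjusted p = 0.0175, limma) or mutant proximal mandible 3 (−0.27, adjusted p = 0.0404, limma), and was −0.16 without the 3 arrays (adjusted p = 0.474, limma). Between ends the effect differed for 0 of 9 members and for 0% of all genes tested by limma (982 genes had an unadjusted p under 0.05). Tgfbi, at −0.38 ± 0.13 for distal minus proximal (unadjusted p = 0.0113 and adjusted p = 0.582, limma), was the member with the smallest p.

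Within controls, the members were compared between jaws and between ends. At the proximal ends 4 of 9 differed between mandible and maxilla, where 33.6% of all genes tested passed. Bambi was 0.83 ± 0.21 higher in the mandible (11.13 ± 0.10 in control proximal mandible and 10.31 ± 0.12 in control proximal maxilla, SD, n = 3 each; adjusted p = 0.00454, limma). Ldlrad4 was 0.56 ± 0.11 higher (7.42 ± 0.14 in the mandible and 6.86 ± 0.06 in the maxilla; adjusted p = 0.000689, limma), and Ski was 0.34 ± 0.08 higher (adjusted p = 0.00235, limma). Tgif1 was lower in the mandible, −0.37 ± 0.12 (9.66 ± 0.06 in the mandible and 10.03 ± 0.04 in the maxilla; adjusted p = 0.0271, limma). The Tgif1 call was lost without any one of 4 arrays, proximal mandible 1 or 3 and proximal maxilla 2 or 3 (adjusted p from 0.0566 to 0.0917, limma).

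Ccn2 was lower in the control mandible at both ends, −0.96 ± 0.41 proximal (adjusted p = 0.0761, limma) and −0.94 ± 0.41 distal (adjusted p = 0.158, limma), neither past the threshold, with all mandible arrays below all maxilla arrays. At the distal ends 0 of 9 members passed by limma, against 8.81% of all genes tested. An unadjusted p under 0.05 by limma was found there for 1 member and for 3124 of the 12811 genes. Nasal epithelium means were −1.22 to −1.04 in control mandible arrays, against 0.19 to 2.91 in control maxilla arrays, and muscle means were 0.49 to 1.94, against −1.98 to −1.08. Neither mean overlapped between the control jaws, so a fit with both as covariates extrapolates and cannot separate jaw from tissue. With both means as covariates the Ccn2 differences changed sign, to 1.14 proximal (adjusted p = 0.159, limma) and 0.77 distal (adjusted p = 0.209, limma). In that fit the proximal jaw differences of Ski (0.07, adjusted p = 0.84, limma) and Ldlrad4 (0.31, adjusted p = 0.455, limma) did not pass, Bambi still did, and Tgif1 changed sign without passing (0.28, adjusted p = 0.417, limma).

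Between the ends of the control maxilla 1 of 9 members differed, Ski, which was 0.35 ± 0.08 higher in the distal end (11.34 ± 0.07 distal and 10.99 ± 0.08 proximal, SD, n = 3 each; adjusted p = 0.0123, limma). There 8.42% of all genes passed. The Ski call was lost without control distal maxilla 2 (0.30, adjusted p = 0.0982, limma) or control proximal maxilla 1 (0.31, adjusted p = 0.0704, limma). Bambi was 0.60 ± 0.21 higher in the distal maxilla without passing (adjusted p = 0.0836, limma). Between the ends of the control mandible 0 of 9 passed by limma, against 5.78% of all genes. An unadjusted p under 0.05 by limma was found there for 1 member and for 2245 of the 12811 genes. The largest member difference was 0.28 ± 0.41, for Ccn2.

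The upstream parts of the pathway were read from whole gene lists. Of the 3 ligands, Tgfb2 rose in mutants in 3 of the 4 regions: 0.61 ± 0.08 in the proximal maxilla (adjusted p = 0.000217, limma), 0.54 ± 0.08 in the distal mandible and 0.69 ± 0.08 in the proximal mandible. Tgfb1 and Tgfb3 passed in none. Of the 5 receptor genes, 4 rose and 1 fell in the proximal maxilla, where 23.3% of all genes tested passed. Tgfbr3, the betaglycan coreceptor, rose by 1.82 ± 0.23, Tgfbr2 by 0.78 ± 0.09, Acvrl1 by 0.50 ± 0.13 and Eng, an endothelial coreceptor, by 0.40 ± 0.07, while Tgfbr1, the type I receptor, fell by 0.48 ± 0.11. Tgfbr2 and Eng also rose in the proximal mandible (0.32 ± 0.09 and 0.26 ± 0.07). The 7 Smads and Smad regulators (Smad2, Smad3, Smad4, Smad6, Smad7, Smurf1, Smurf2) passed limma's test in 0 of the 4 regions (1 or 2 per region had an unadjusted p under 0.05). Smad7, the inhibitory Smad induced by TGF-beta, differed by −0.19 ± 0.13 and −0.27 ± 0.13 in the distal and proximal maxilla, and by 0.10 ± 0.13 and 0.14 ± 0.13 in the distal and proximal mandible.

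Among 21 other TGF-beta response genes, Fbln5, an elastic fibre protein, fell in all 4 regions, by 0.80 ± 0.11, 0.51 ± 0.11, 1.43 ± 0.11 and 1.92 ± 0.11 in the distal maxilla, proximal maxilla, distal mandible and proximal mandible. Scx, a tendon transcription factor, fell in 3 regions and elastin (Eln) in both mandible ends. In all, 1 gene fell and 0 rose in the distal maxilla, and 3 fell and 6 rose in the proximal maxilla. In the distal mandible 3 fell and 0 rose, and in the proximal mandible 3 fell and 1 rose. Of all genes tested 0.195%, 23.3%, 0.742% and 4.34% passed in the same order of regions. The 6 that rose in the proximal maxilla included Acta2 (1.44 ± 0.34), Cdkn2b (0.93 ± 0.18), Snai2 (0.48 ± 0.08) and Col3a1 (0.38 ± 0.07). The proximal maxilla holds 2 of the 3 arrays that stood apart in tissue markers, and the part of those tissues in these changes was not tested.

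**Figure D5:**
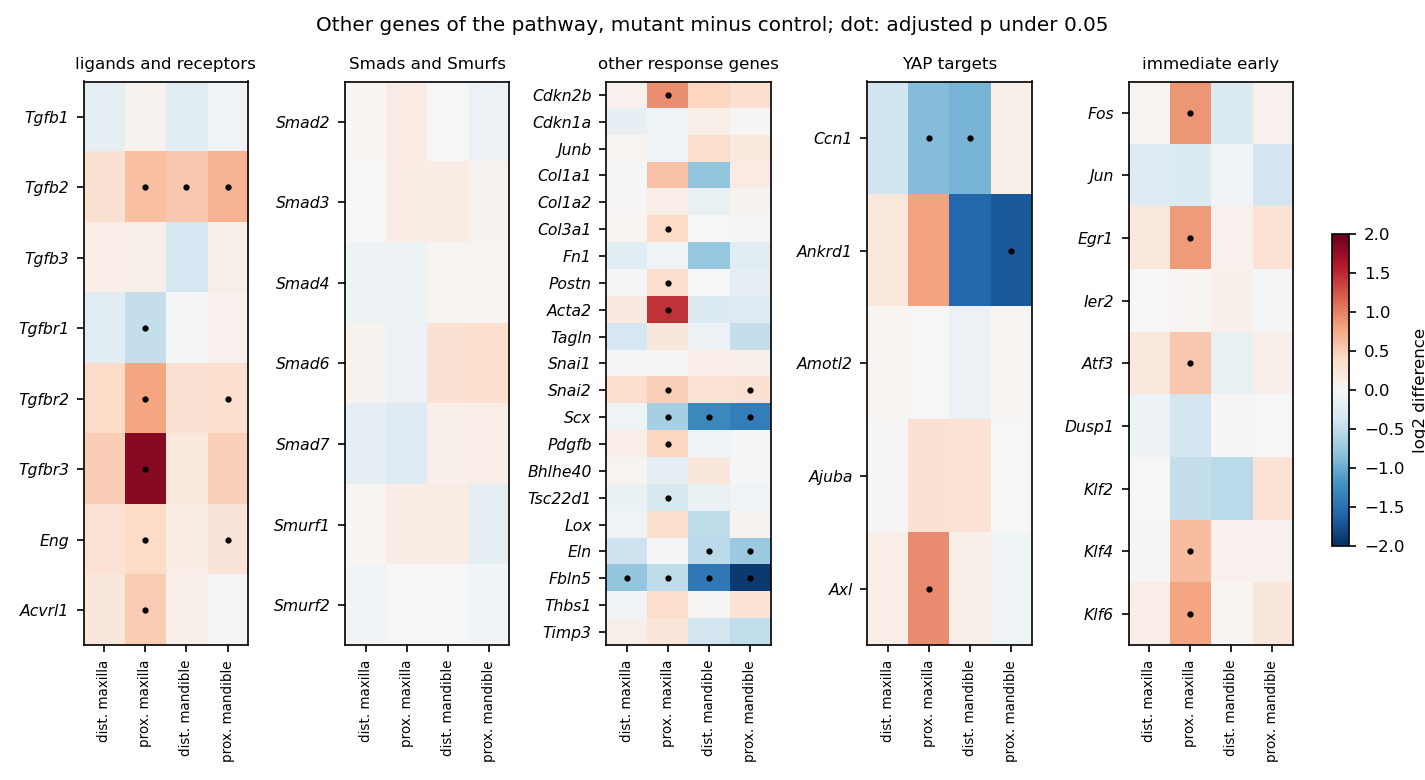
Mutant minus control difference (log2, colour) of each pathway gene (rows, in panels of ligands and receptors, Smads and Smurfs, other response genes, YAP targets and immediate early genes) in the 4 regions (columns), with a dot where the adjusted p was under 0.05. Fbln5 has a dot in all 4 regions and the Smad panel has none.

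Other signalling lists were read beside the members. Ccn2 is also a target of the Hippo pathway factors YAP and TAZ. Of 5 other such targets, Ccn1, a close relative of Ccn2, fell by 0.87 ± 0.18 in the proximal maxilla (adjusted p = 0.00277, limma) and by 0.92 ± 0.18 in the distal mandible (adjusted p = 0.0188, limma). It differed by −0.40 ± 0.18 in the distal maxilla and 0.12 ± 0.18 in the proximal mandible, neither past the threshold. Axl rose in the proximal maxilla (0.95 ± 0.17) and Ankrd1 fell in the proximal mandible (−1.68 ± 0.40). The 7 BMP targets (Id1, Id2, Id3, Id4, Msx1, Msx2, Dlx5), read because Bambi also acts on BMP receptors, passed limma's test in 0 of the 4 regions (0 in the distal maxilla and 2 in each other region had an unadjusted p under 0.05). Of 9 immediate early genes, 5 rose in the proximal maxilla (Fos, Egr1, Atf3, Klf4 and Klf6, by 0.53 to 0.88), where 23.3% of all genes tested passed. In the other regions 0 of these 9 passed, against 0.195% to 4.34% of all genes, while Klf10 passed in no region.

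The tested genes with the pattern most like each member over the 24 arrays were found by Pearson's r, given as a description, since the arrays share regions and genotypes. For Ccn2 they were Bmp5 (0.96), Cytl1 (0.93) and Synpo (0.90), and for Tgfbi Stard13 (0.83), Zfp469 (0.79) and Smoc2 (0.78). For Bambi they were Wif1 (0.92), Ppfibp2 (0.90) and Aldh1b1 (0.90), and for Tgif1 Casp6 (0.91), Prdx2 (0.91) and Kcnq5 (0.90). Ski was nearest to Klhl20 (0.88), Tbc1d2b (0.86) and Myo18a (0.85), and Skil to Trmt61b (0.88), Alg10b (0.86) and Noct (0.86). Klf10 was nearest to Ints8 (0.84), Ldlrad4 to Nos3 (0.84) and Pmepa1 to Spsb1 (0.81).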

How the data were processed

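RNA of 24 jaw pieces (RNeasy kits, 5 µg total RNA each) was biotin labelled and hybridised to Affymetrix mouse arrays, per the labels' protocols. The submitters' processing notes name RMA and Partek 6.6, with settings not given in the sources used here. The deposited table holds log2 values, a scale taken from the values themselves (3.44 to 14.8, array medians 6.93 to 7.00). The platform annotation gave 1 symbol to 34945 probe sets, several to 932 and none used here to 9160, and 64 controls were left out. Entrez identifiers of 34741 probe sets matched a RefSeq table and 0 symbols were updated. Genes above the array's median in at least 3 of 24 arrays were tested with limma 3.58.1 (R 4.3.3; lmFit, then eBayes; two-sided), with all 24 arrays in 1 fit of 8 groups, checked on simulated data. Precision is limited by the number of arrays. The closest arrays of a group had a root mean square difference of 0.18. Alternatives covered filters, normalization, weights, covariates, blocks and left-out arrays, and leaving out 3 maxilla arrays was added after seeing the data. Deviations of same-numbered mutant and control arrays from their group means correlated over 0.1 in 3 of 3 pairs at each mandible end, in 2 of 3 in the distal maxilla and in 1 of 3 in the proximal maxilla. By that check the numbers pair arrays in the mandible, from the data and not from the labels. Arrays of one genotype and number also correlated over 0.1 between regions, in 17 of 18 control pairs and 12 of 18 mutant pairs. A random replicate block had a consensus correlation of 0.34. The main fit treats the 24 arrays as independent, so its jaw, end and control contrasts ignore this sharing. So does the average of regions when it is taken in that fit. Named genes are the 9 members, pathway genes past the threshold with a few that were not, and the 3 genes most like each member. The members and gene lists were chosen with earlier results of these data known.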

Additional observations from a re-analysis of the deposited data

Results flagged for a closer look

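The mutant effect differed between jaws past the threshold (limma's interaction contrast over all 24 arrays, mandible minus maxilla, averaged over both ends) for 11 genes among the members and the pathway lists. Tgfbi had −0.98 and Ldlrad4 −0.47. Of the other response genes, Fbln5 had −1.02, Scx −0.96, Timp3 −0.61, Eln −0.40 and Pdgfb −0.33. The receptors Tgfbr3 and Tgfbr1 had −0.81 and 0.37. The YAP target Ankrd1 had −2.13 and the BMP target Id4 0.82. Among all genes tested 8.26% passed this contrast.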

How the results depend on the processing

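Of 2140 member differences recomputed under another setting, 1949 kept both their direction and their side of the threshold, 35 lost a call in the same direction, 48 gained one and 108 changed sign. Of those 108, 100 were differences under 0.2 in size, the other 8 came with the nasal and muscle means as covariates, and 1 had been a call: Tgif1 in control mandible minus maxilla at the proximal ends was 0.28 (adjusted p = 0.417, limma) with nasal and muscle means as covariates. The 7 not called were Bambi, Skil and Tgif1 in the proximal maxilla, Ccn2 and Bambi in the jaw difference, and Ccn2 in both control jaw comparisons. Numbers of members called moved as follows, and the cause was not tested. The number of all genes called also moved with the setting, over the ranges given below. The share of all genes is not given for each setting, so these counts do not set the members apart. With array weights they were 2 in the distal maxilla, 6 in the proximal maxilla, 4 in the distal mandible, 2 in the proximal mandible, 2 for the average, 5 for the jaw difference, 1 for the end difference, 3 for ends of control maxilla, 3 for jaws at control distal ends and 5 at control proximal ends. With the cartilage covariate they were 1 in the proximal maxilla, 1 for the jaw difference, 2 for ends of control maxilla and 1 for jaws at control distal ends. With nasal and muscle covariates they were 0 in the proximal maxilla, 2 in the distal mandible, 0 for the jaw difference, 0 for ends of control maxilla, and 1 for control jaws at either end. With only the compared groups in the fit they were 2 in the proximal maxilla, 0 at both mandible ends, 0 for ends of control maxilla, 1 for jaws at control distal ends and 5 at control proximal ends. With a random replicate block they were 5 for the jaw difference, 2 for ends of control maxilla and 5 for jaws at control proximal ends. With the median over probe sets the proximal mandible had 0, since Ldlrad4 then failed the brightness filter. In the fit of all 24 arrays the average had 3. Without the 3 maxilla arrays 1 mutant array was left in the proximal maxilla, so members called are not counted for that fit.

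With the replicate block 2 members were called in the distal mandible, the added one being Ldlrad4 (−0.36, adjusted p = 0.0197, limma), and Ski passed in the jaw difference (−0.23, adjusted p = 0.0435, limma). The block changed no other member call. Leaving out 1 array in turn gave 0 to 1 members in the distal maxilla, 3 to 4 in the proximal maxilla, 0 to 1 in the distal mandible, 1 in the proximal mandible, 0 for the average, 2 to 5 for the jaw difference, 0 for the end difference, 0 to 1 for ends of control maxilla, 0 for ends of control mandible, 0 for jaws at control distal ends and 3 to 4 at control proximal ends. Over all settings the number of genes called was 1 to 564 in the distal maxilla, 6 to 6205 in the proximal maxilla, 35 to 984 in the distal mandible, 125 to 1693 in the proximal mandible, 0 to 2521 for the average and 8 to 3755 for the jaw difference. It was 0 to 1140 for the end difference, 116 to 2859 for ends of control maxilla and 303 to 1779 for ends of control mandible. For control jaws it was 389 to 4981 at the distal ends and 159 to 6808 at the proximal ends. Signal near background limits Ldlrad4.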

Other observations

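Within each of the 8 groups the 3 arrays have replicate numbers 1 to 3. Klf10 was highest on the array with number 3 in 8 of 8 groups, mutant and control alike, and Ldlrad4 was highest on the array with number 2 in 8 of 8 groups. No other member was highest on the same number in more than 5 groups. The labels do not say what the numbers share. Between mutant and control arrays of the same region and number, Ccn2 and Pmepa1 were each lower in the mutant in 11 of 12 pairs. Skil and Ldlrad4 were lower in 9 of 12, Tgif1 and Klf10 in 7, Tgfbi and Ski in 6, and Bambi in 4. These pairs are not independent, since they share regions and numbers. The share of all genes with such counts was not computed, so none of the counts in this paragraph sets a member apart.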
